A study of Homo sapiens with 24 samples.

Results

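The 10 genes described here encode the brakes and the cyclins of the G1 phase of the cell cycle. They are the INK4 inhibitors CDKN2A, CDKN2B, CDKN2C and CDKN2D, the Cip/Kip inhibitors CDKN1B and CDKN1C, the D cyclins CCND1 and CCND3, and the E cyclins CCNE1 and CCNE2. They were taken by name from the 58051 genes of the count tables, and their levels were compared among untreated cell lines and between Ocoxin and control within each cell line. Ocoxin is a nutritional supplement. The study asked which transcripts it alters in tumor cells, and RNA of adhered cells was sequenced after 48 h in medium with 1% FBS. The 24 libraries came from SW620 colorectal cells (COAD) and HCC-70 triple negative breast cells (TNBC), both treated with Ocoxin at a 1:700 dilution, from BxPC-3 pancreatic cells (PAAD) at 1:500 and from LNCaP prostate cells (PRAD) at 1:50. Each cell line gave 3 control and 3 Ocoxin libraries. Each tumor type is therefore represented by a single established cell line, and each dilution was close to the one that gave the median inhibition of its cell line.

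Cyclins activate cyclin-dependent kinases. D cyclins pair with CDK4 and CDK6, and E cyclins pair with CDK2, and both kinds of complex phosphorylate the retinoblastoma protein RB1, which then releases E2F transcription factors that drive entry into S phase. INK4 proteins bind CDK4 and CDK6 and keep them from D cyclins, whereas the Cip/Kip proteins p27 (CDKN1B) and p57 (CDKN1C) act on cyclin-CDK complexes, above all those of CDK2. The CDKN2A and CDKN2B genes lie side by side on chromosome 9p21, a region often lost in tumors.

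Library totals were 9063968 to 9520969 counts in PRAD and 25160757 to 39009959 counts elsewhere. Both mates of a fragment were counted in COAD, PAAD and TNBC, and PRAD was counted with other settings, so that levels of PRAD are not compared with those of the others. Levels are given as CPM, a library's counts scaled to a common total, after TMM scaling, which adjusts for differences in library composition. LNCaP expressed all 6 prostate markers and BxPC-3 all 5 pancreatic markers. In SW620 the colon markers VIL1, of which 44% of exonic bases are shared with USP37, CDX2 and CDH17 were present, whereas CDX1 was at 0 to 0.0997 CPM and GPA33 at 0.204 to 0.888 CPM. HCC-70 expressed the basal markers KRT5, KRT17, KRT14 and EGFR, ELF5 did not exceed 0.0538 CPM, PGR was at 0, ESR1 at 5.51 to 8.18 CPM and ERBB2 at 241 to 286 CPM. The basal markers did not single out HCC-70. Their sum in TNBC controls was 2270 to 2582 CPM, below that of PAAD controls given below. KRT5, KRT17, EGFR and ELF5 were higher in untreated PAAD than in untreated TNBC, and KRT14 was lower. Of untreated COAD, PAAD and TNBC, TNBC had the highest ESR1 and ERBB2. Some markers moved with the treatment. In TNBC the summed pancreatic list, which shares epithelial keratins with breast, was at 2654 to 3061 CPM with Ocoxin and at 3122 to 3358 CPM in controls, with 2 of 5 markers lower. In PAAD the summed basal list was at 4759 to 5342 CPM with Ocoxin and at 5695 to 6329 CPM in controls, with 3 of 5 markers lower. The summed colon list in COAD was at 506 to 551 CPM with Ocoxin and 553 to 558 CPM in controls, with none of 4 markers tested altered, and the summed prostate list in PRAD was at 1641 to 1813 CPM and 1895 to 1993 CPM, with 1 of 6 lower. The basal list was also higher in COAD, at 31.6 to 35.7 CPM against 22.4 to 25.1 CPM, with 1 of 2 tested altered, and in TNBC 1 of its 4 tested members, EGFR, was higher and 2, KRT17 and KRT14, were lower. The part of these shifts in the results below was not tested.

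The clearest contrast among the untreated cells concerned the INK4 pair on 9p21. CDKN2A (chromosome 9, 21967753 to 21995301, minus strand, hg38) encodes p16 and, from another first exon and reading frame, ARF, which protects p53. In the scaling of the 9 control libraries of COAD, PAAD and TNBC, CDKN2A was at 52.4, 51.7 and 58.7 CPM in COAD, at 303, 326 and 291 CPM in TNBC, and at 0 counts in every PAAD library. The groups did not overlap. TNBC exceeded COAD by 2.497 on the log2 scale (SE 0.067, edgeR adjusted p = 5.9e-18). CDKN2B (chromosome 9, 22002903 to 22009363, minus strand), which encodes p15, a target of TGF-beta signaling, was at 17.96, 17.94 and 18.85 CPM in COAD and at 243.2, 248.7 and 225.2 CPM in TNBC. The TNBC level was higher by 3.71 (SE 0.068, edgeR adjusted p = 1.2e-20), and all PAAD libraries were again at 0 counts.

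Because PAAD held no count, the fold against it can only be bounded. A floor of 3 counts per library was set in place of a count of 0, which covers counting error only. Both mates of a fragment were counted, so counts were not independent and the bounds are approximate. At this floor CDKN2A was at least 536-fold higher in COAD and at least 3024-fold higher in TNBC than in PAAD. For CDKN2B the bounds were at least 180-fold in COAD and at least 2358-fold in TNBC. Neither gene had a count in the 3 Ocoxin libraries of PAAD either, so their response could not be tested in this cell line. PRAD libraries, on their own scale, held 216 to 304 CDKN2A counts and 34 to 60 CDKN2B counts in controls, so both genes were present there, CDKN2B at only 3.72 to 6.38 CPM.

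The genes next to the INK4 pair showed how far the absence in PAAD reached toward FOCAD. Genes beyond ELAVL2 were not read, so the reach in that direction is not known. MTAP, which encodes an enzyme of methionine salvage and is often lost together with CDKN2A, held 0 to 2 counts in the 6 PAAD libraries and 94.4 to 109 CPM in COAD, 99.2 to 123.3 CPM in PRAD and 161 to 167 CPM in TNBC. KLHL9, an adaptor of a ubiquitin ligase, held 0 counts in PAAD and 54.2 to 59.1 CPM in COAD. ELAVL2, an RNA-binding protein, held 0 to 2 counts in PAAD and 18.3 to 22.6 CPM in COAD. The expressed genes on the other side were FOCAD, at 17.2 to 23.5 CPM in PAAD, and MLLT3, at 4.85 to 6.89 CPM. HACD4, which lies between FOCAD and KLHL9, had 2 to 8 counts in PAAD and 2 to 18 counts in COAD. From KLHL9 to ELAVL2 the tables list 41 genes, of which 12 are protein-coding, and no protein-coding gene exceeded 2 counts in a PAAD library. In PAAD 35 of the 41 genes were at 0 in all 6 libraries, and 2 had at least 10 counts in each, the processed pseudogenes KHSRPP1 and CLIC4P1, with 195 to 252 and 318 to 392 counts. Many genes of the stretch were low elsewhere as well, since at least 10 counts in each of 6 libraries were held by 16 of the 41 in TNBC, 10 in PRAD and 10 in COAD. Whether reads of the pseudogenes came from their parent genes was not tested. DNA was not measured.

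**Figure D1:**
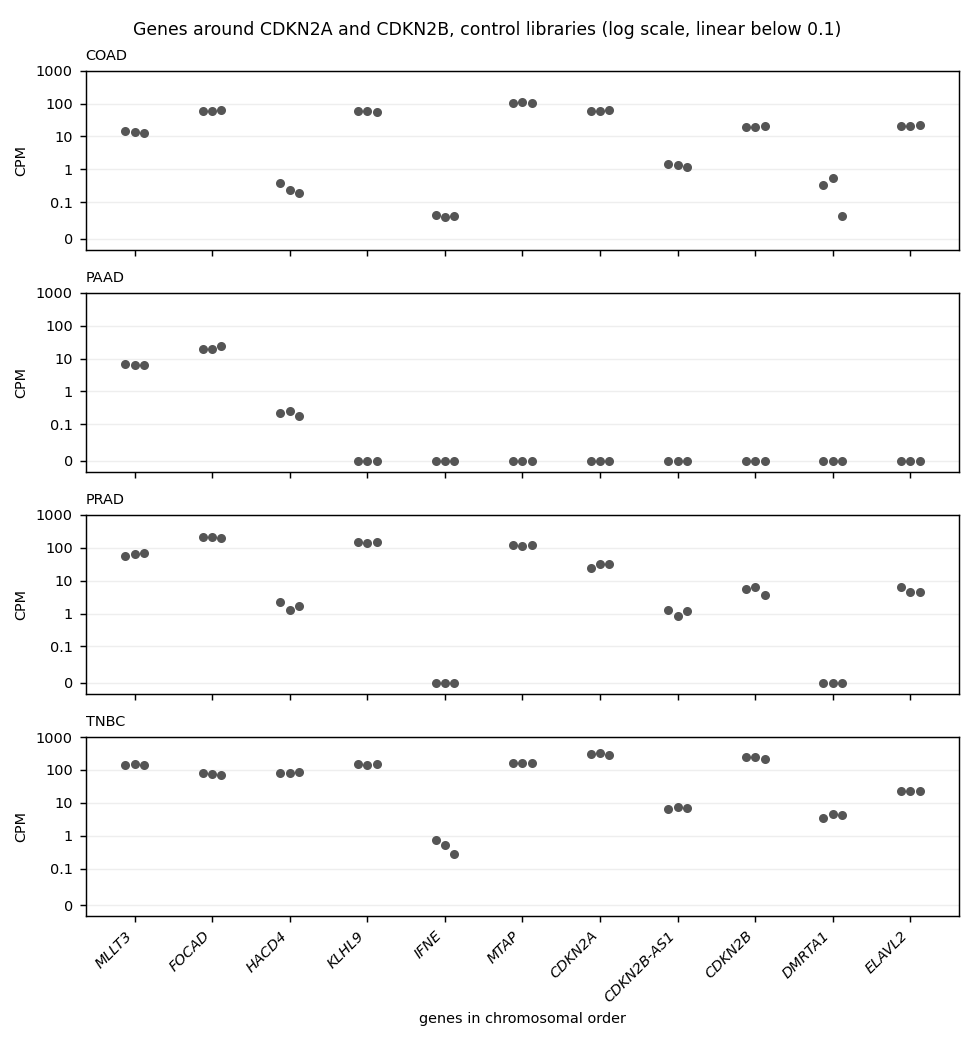
CPM (y axis, log scale, linear below 0.1) of 11 genes in chromosomal order (x axis) in the 3 control libraries of each cell line, 1 point per library, each cell line on its own scale. In PAAD the genes from KLHL9 to ELAVL2 sit at 0 while FOCAD and MLLT3 are expressed, whereas CDKN2A and CDKN2B are above 0 in every library of the other cell lines.

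The remaining INK4 genes were expressed in all cell lines and, among COAD, PAAD and TNBC, were highest in untreated TNBC. CDKN2C (chromosome 1, 50960745 to 50974633) encodes p18. It was at 30.6, 32.1 and 35.9 CPM in COAD, at 14.4, 15.7 and 13.2 CPM in PAAD and at 160, 171 and 130 CPM in TNBC, an order without overlap. TNBC exceeded COAD by 2.23 on the log2 scale (SE 0.091), and PAAD was below COAD by a difference of -1.19 (SE 0.10). CDKN2D (chromosome 19, 10566462 to 10569059) encodes p19 and was at 29.6, 29.1 and 29.3 CPM in TNBC. COAD, at 7.26, 7.63 and 10.1 CPM, and PAAD, at 8.19, 8.11 and 6.99 CPM, overlapped, and a difference beyond their spread was not shown (-0.10, SE 0.120, edgeR adjusted p = 0.457).

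Among the Cip/Kip genes, CDKN1B (chromosome 12, 12715058 to 12722371) was lowest in COAD and highest in TNBC. COAD, PAAD and TNBC had 40.6 ± 1.92, 66.8 ± 2.55 and 97.9 ± 1.75 CPM (mean ± SD, n = 3), and no libraries overlapped between cell lines. CDKN1C (chromosome 11, 2883213 to 2885881), an imprinted gene, was above trace level only in COAD, at 102 to 150 counts and 3.39 ± 0.50 CPM. PAAD controls held 6 to 12 counts, TNBC controls 0 to 12 and PRAD controls 2 to 3 counts. PAAD and TNBC were not shown to differ in CDKN1C (TNBC minus PAAD -0.67, SE 0.596, edgeR adjusted p = 0.317).

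The D cyclin CCND1 (chromosome 11, 69641087 to 69654474), the classical mitogen-induced cyclin, followed the opposite order. It was at 334, 344 and 342 CPM in COAD, at 248.8, 240.4 and 239.0 CPM in PAAD and at 158, 150 and 164 CPM in TNBC. The TNBC level was below that of COAD by a log2 difference of -1.11 (SE 0.051, edgeR adjusted p = 6.5e-15). CCND3 (chromosome 6, 41934933 to 42050357), the D cyclin best known from blood cells, was at similar levels, with 85.0 ± 6.82 CPM in COAD, 72.3 ± 6.08 in PAAD and 81.1 ± 3.55 in TNBC. PAAD was below COAD (-0.23, SE 0.070, edgeR adjusted p = 0.0048), and COAD and TNBC were not shown to differ in CCND3 (edgeR adjusted p = 0.374). The difference between PAAD and TNBC (0.17, SE 0.070, edgeR adjusted p = 0.0377) did not pass the threshold with DESeq2 (adjusted p = 0.0834) or its size factors (0.0548), nor with 4 of the control libraries left out in turn, PAAD replicates 2 and 3 and TNBC replicates 2 and 3 (adjusted p 0.0536 to 0.197). Over all alternatives its adjusted p was 0.0118 to 0.197.

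The E cyclins were ordered in different ways. CCNE1 (chromosome 19, 29811898 to 29824308) was highest in PAAD, at 22.8, 24.8 and 23.5 CPM, followed by TNBC at 15.3, 17.5 and 19.5 CPM and COAD at 11.5, 10.7 and 11.2 CPM. CCNE2 (chromosome 8, 94879770 to 94896678) was at 58.5, 59.1 and 60.8 CPM in TNBC, 1.80 higher on the log2 scale than in COAD (SE 0.077, edgeR adjusted p = 1.5e-15). COAD and PAAD overlapped in CCNE2, and a difference beyond their spread was not shown (-0.05, SE 0.081). Of the exonic bases of CCNE2, 37.1% are shared with other genes, INTS8 among them, and the counting did not use strand, so its reads are uncertain to that extent. The shares were 10.3% for CCND1, with LTO1, and 7.9% for CDKN2A, with CDKN2B-AS1.

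In all, 8 of the 10 members differed between untreated COAD and PAAD, against 78.6% of all genes tested. Between COAD and TNBC 9 of 10 differed, against 82.8% of all genes, and between PAAD and TNBC 9 of 10, against 77.1%. Different cell lines thus differed at most genes, and the members' counts were close to these shares. Compared per length within the controls of each cell line, CCND1 was the highest member in COAD (77.7 ± 1.26 CPM per kb), PAAD (47.2 ± 0.72) and PRAD (48.2 ± 2.06). In TNBC the INK4 genes CDKN2A, CDKN2B and CDKN2C preceded it, CDKN2A with 70.0 ± 4.16, CDKN2B with 58.2 ± 3.0 and CDKN2C with 45.9 ± 6.30 CPM per kb, followed by CDKN1B with 34.4 ± 0.61 and CCND1 with 32.2 ± 1.41 CPM per kb.

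**Figure D2:**
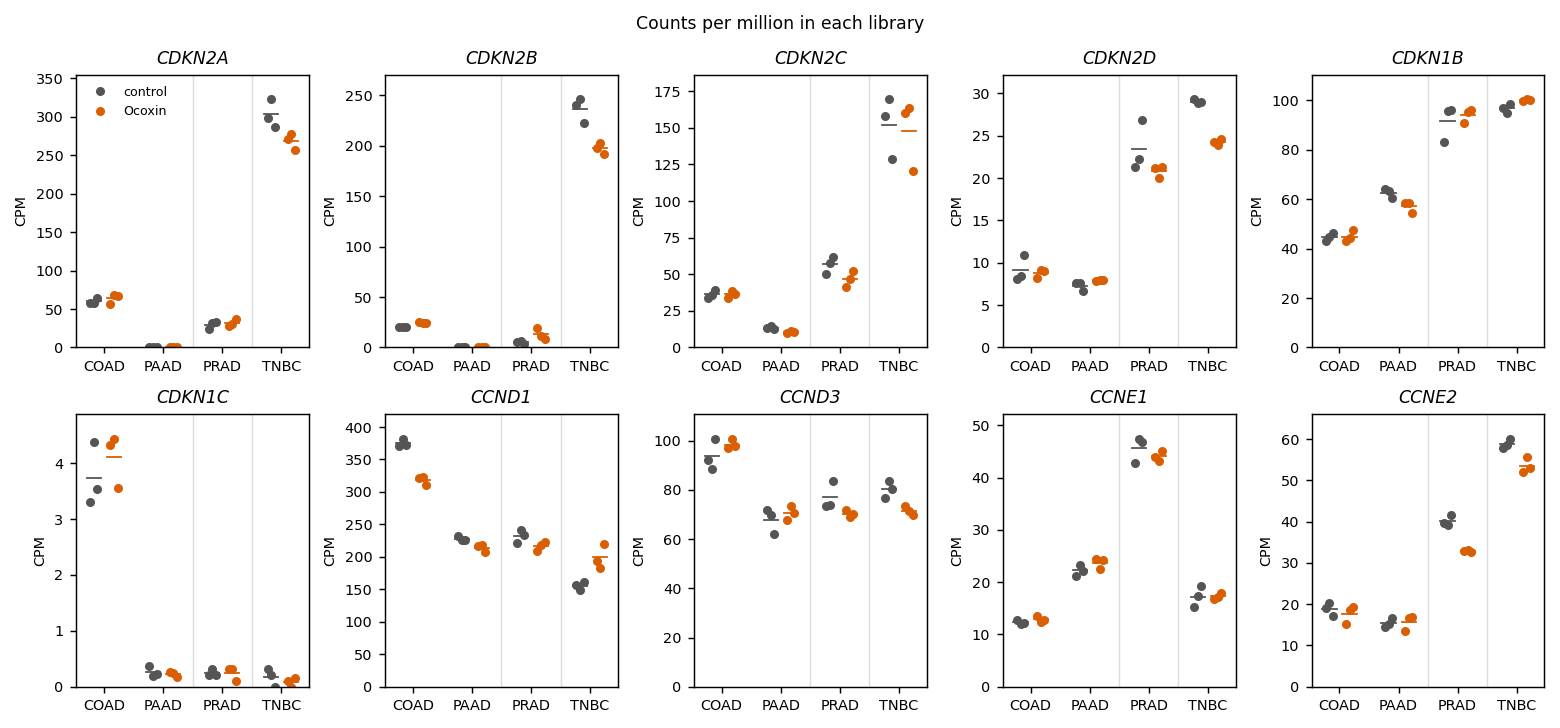
CPM (y axis, from 0) of each of the 10 members in every library, by cell line (x axis) and treatment, with a line at the mean of 3 libraries; each cell line is on its own scale and PRAD is set apart because it was counted with other settings. CCND1 is lower with Ocoxin in COAD and higher in TNBC, and CDKN2A and CDKN2B lie at 0 in PAAD.

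In the main edgeR fit of each cell line alone, the members that Ocoxin altered changed by 1.28-fold or less. In some other edgeR fits CDKN2B in PRAD passed as well, with a larger log2 difference (1.31 in the fit of all 24 libraries). The counts that follow are those of the main fits. These fits do not pair libraries of the same replicate number, and fits that do are given at the end. Altered means an adjusted p under 0.05 over all genes tested in that cell line, with no minimum fold. In COAD 2 of 10 members tested were altered, 1 higher and 1 lower, against 2.55% of all genes (1.47% higher and 1.09% lower). In PAAD 1 of 7 members tested was altered, a decrease, against 8.33% of all genes (4.72% higher and 3.62% lower), and CDKN2A, CDKN2B and CDKN1C were too low to be tested. In PRAD none of 9 members tested was altered with edgeR, against 2.98% of all genes (2.4% higher and 0.58% lower), although 4 had an unadjusted p under 0.05 (20.8% of all genes did) and DESeq2 called 1, CDKN2B (619 of all genes). Of all altered genes, 80.5% were higher in PRAD, but 29.3% when trends with gene length were removed, and in COAD 57.4%, but 38.7% when trends with length and GC content were removed. In TNBC 5 of 9 members tested were altered, 1 higher and 4 lower, against 21% of all genes (9.65% higher and 11.3% lower). CDKN1C was not tested in PRAD and TNBC. Nothing states that the 3 libraries of a group came from separate cultures, so the p-values measure the spread between libraries, which may be technical. In bulk RNA, fewer cells that express a gene and less RNA per cell cannot be told apart.

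**Figure D3:**
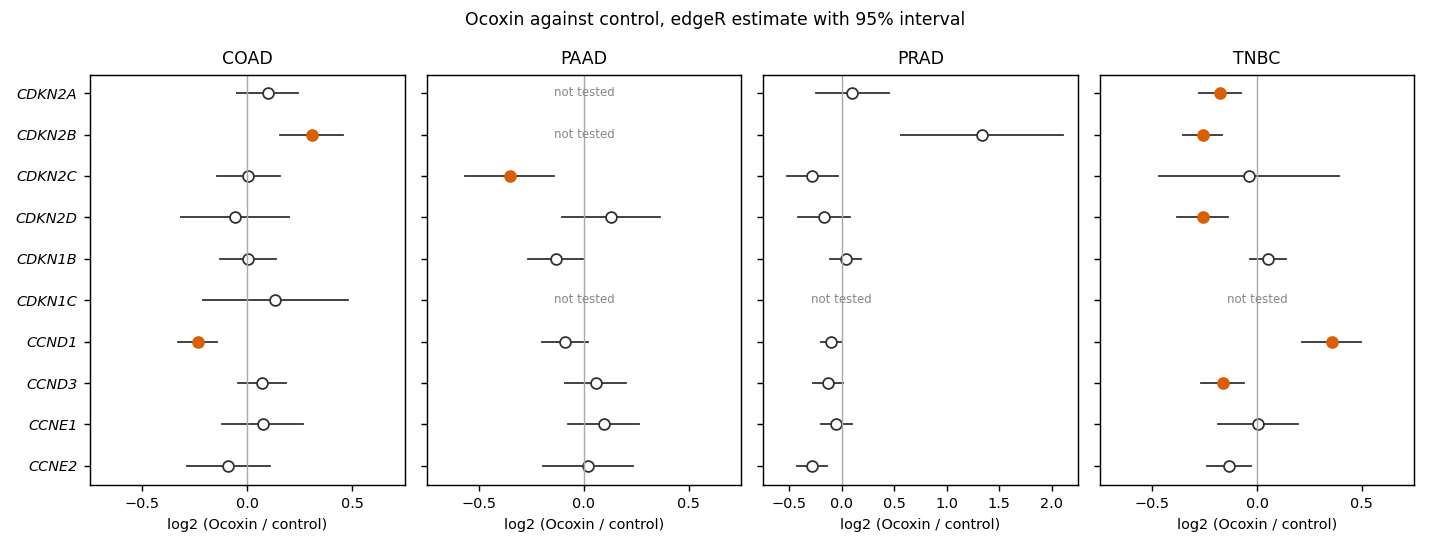
Log2 ratio of Ocoxin to control (x axis; the PRAD axis is wider) for each member and cell line, with its 95% interval from edgeR; filled points passed an adjusted p of 0.05. CCND1 is at -0.24 in COAD and 0.36 in TNBC, and CDKN2B is at 0.31 in COAD and -0.26 in TNBC.

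CDKN2B moved in opposite directions in different cell lines. In COAD it was at 19.9, 19.9 and 20.5 CPM in controls and at 25.5, 24.6 and 24.6 CPM with Ocoxin. All treated libraries lay above all controls, and the log2 increase was 0.31 (SE 0.072, edgeR adjusted p = 0.0241). In TNBC it fell from 240, 246 and 223 CPM to 197, 203 and 192 CPM, again without overlap, by a log2 change of -0.26 (SE 0.043, edgeR adjusted p = 0.00132). In PRAD the controls were at 5.67, 6.38 and 3.72 CPM and the Ocoxin libraries at 19.8, 11.4 and 8.74 CPM, which did not overlap but rested on 79 to 185 counts with Ocoxin. The PRAD log2 difference of 1.34 (SE 0.333) missed the threshold with edgeR (adjusted p = 0.0775) and passed it with DESeq2 (adjusted p = 0.00213). Over the alternatives the adjusted p of CDKN2B in PRAD was 0.000376 to 0.221. PAAD, with no count of CDKN2B, has no response to compare. Among COAD, PRAD and TNBC the response of CDKN2B differed in a fit of these cell lines alone, added after the data were seen (edgeR adjusted p = 0.00369). In the fit of all 24 libraries, in which PAAD entered at 0, the adjusted p was 0.00483, and 8.1e-22 to 0.0140 over the alternatives. The difference between TNBC and COAD, which received the same dilution, was -0.58 (95% interval -0.95 to -0.21, edgeR adjusted p = 0.0557, and 1.0e-06 to 0.134 over the alternatives). The COAD call was lost without control replicate 1 or 2 or Ocoxin replicate 1 or 2 (adjusted p 0.0514 to 0.130), whereas the TNBC call was kept without any single library.

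CDKN2A, the neighbor of CDKN2B, fell in TNBC. The TNBC controls were at 299, 323 and 287 CPM and the Ocoxin libraries at 271, 277 and 257 CPM. The highest treated library lay below the lowest control, and the log2 change was -0.18 (SE 0.046, edgeR adjusted p = 0.0177). Without control replicate 2 or Ocoxin replicate 1 the call was lost (adjusted p = 0.0804 and 0.0538). In COAD CDKN2A was at 58.2, 57.5 and 63.9 CPM in controls and 57.0, 68.8 and 66.5 CPM with Ocoxin, with overlap and a difference of 0.10 (95% interval -0.05 to 0.24). In PRAD the difference was 0.10 as well, with a wider interval of -0.25 to 0.45. A difference in the response of CDKN2A was not shown among COAD, PRAD and TNBC (edgeR adjusted p = 0.277), nor in the fit of all 24 libraries (0.372), in which PAAD entered at 0. The adjusted p was 0.00652 to 0.624 over the alternatives. The reads of p16 and ARF cannot be separated in counts per gene.

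CDKN2C was lower with Ocoxin in PAAD, at 10.1, 11.3 and 10.4 CPM against 13.4, 14.8 and 12.5 CPM in controls. The groups did not overlap, and the log2 change was -0.35 (SE 0.10, edgeR adjusted p = 0.0386). This call was kept only when control replicate 3 was the library left out, and without any of the others the adjusted p was 0.0750 to 0.163. PRAD had a log2 difference of -0.28 (SE 0.104, edgeR adjusted p = 0.181), with 50.5, 57.9 and 61.7 CPM in controls and 41.2, 46.8 and 52.1 CPM with Ocoxin. In TNBC replicate 3 was the lowest library of either group, at 129 CPM in the control and 120 CPM with Ocoxin, and the interval of the difference spanned -0.47 to 0.39. In COAD the difference was 0.01 (95% interval -0.15 to 0.16).

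CDKN2D fell in TNBC from 29.3, 28.8 and 28.9 CPM to 24.3, 23.9 and 24.6 CPM. The groups were well apart, with a log2 change of -0.26 (SE 0.057, edgeR adjusted p = 0.00643). The other cell lines gave differences of -0.06 in COAD, 0.13 in PAAD and -0.17 in PRAD, none of which passed the test. The 3 altered INK4 genes of TNBC all fell in the cell line that, of COAD, PAAD and TNBC, had the highest untreated levels of them. CDKN2C was also highest in untreated TNBC and was not altered there. A link between untreated level and response was not tested.

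The sequence before the start site of these 3 genes is shown because they fell together in TNBC. Each is the 250 bases before the start, 5′ to 3′ on the gene's strand, from the RefSeq promoter windows of GRCh38.p14, with capitals for GGGCGG or its reverse complement CCGCCC, the core bound by SP1.
CDKN2A (chr9:21995325-21995574, minus strand): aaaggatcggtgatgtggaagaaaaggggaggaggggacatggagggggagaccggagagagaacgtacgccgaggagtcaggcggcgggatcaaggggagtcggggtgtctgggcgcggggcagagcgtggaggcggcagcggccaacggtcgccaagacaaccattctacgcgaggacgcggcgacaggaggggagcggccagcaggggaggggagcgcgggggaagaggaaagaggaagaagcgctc
CDKN2B (chr9:22009306-22009555, minus strand): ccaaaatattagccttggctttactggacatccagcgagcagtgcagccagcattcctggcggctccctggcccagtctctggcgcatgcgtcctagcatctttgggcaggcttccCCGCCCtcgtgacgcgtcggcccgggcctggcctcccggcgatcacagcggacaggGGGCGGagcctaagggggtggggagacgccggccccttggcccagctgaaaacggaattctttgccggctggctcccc
CDKN2D (chr19:10568980-10569229, minus strand): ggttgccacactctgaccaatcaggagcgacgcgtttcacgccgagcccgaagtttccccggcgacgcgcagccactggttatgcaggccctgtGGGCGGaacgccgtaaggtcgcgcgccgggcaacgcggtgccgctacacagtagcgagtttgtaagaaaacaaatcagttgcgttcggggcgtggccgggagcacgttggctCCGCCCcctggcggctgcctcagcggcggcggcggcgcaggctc
The CDKN2A window belongs to the outermost start of the gene and not to the first exon of p16. The start sites are those of RefSeq and differ from the ends of the gene spans given above. CDKN2B has the SP1 core at positions -134 and -78 from the start, CDKN2D at -156 and -44, and the CDKN2A window has none.

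The windows, which run from 250 bases before to 50 bases after the start, were searched on both strands for 6 motifs in the 7 members read, and CDKN1C, CCND1 and CCNE2 were not analysed here. The SP1 core was found in 5 of 7 members and in 44.6% of 27305 windows of the genome. It had 7 matches in CCNE1, 5 in CCND3, 3 in CDKN2D, 2 in CDKN2B and 1 in CDKN1B. The E-box CACGTG, found in 7.4% of all windows, was present in CDKN2C, and the FOXO core GTAAACA, found in 3.4%, was present in CCND3. No member window held the E2F octamers TTTCCCGC, TTTCGCGC, TTTGCCGC or TTTGGCGC (3.3% of all windows), the cAMP response element TGACGTCA (2.0%), or the AP-1 sites TGACTCA and TGAGTCA (4.9%). A match describes letters in the window and was not tested as a binding site.

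CDKN1B did not pass the edgeR test in any cell line, nor did CDKN1C in COAD, where alone it could be tested. CDKN1B, whose protein is regulated largely by turnover, had a difference of 0.0017 in COAD (95% interval -0.13 to 0.14). The difference was 0.05 in TNBC (-0.04 to 0.14), 0.04 in PRAD (-0.11 to 0.19) and -0.13 in PAAD (-0.27 to -0.0024). The PAAD libraries did not overlap, at 64.2, 63.4 and 60.4 CPM in controls and 58.6, 58.3 and 54.3 CPM with Ocoxin, but the adjusted p was 0.210 with edgeR, and 0.0344 to 0.524 over the alternatives. CDKN1C in COAD was at 3.30, 4.38 and 3.54 CPM in controls and 4.32, 4.44 and 3.56 CPM with Ocoxin. A difference was not detectable at this depth (0.13, 95% interval -0.21 to 0.48).

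CCND1 had the smallest adjusted p among the members for a difference in response between cell lines. In COAD it fell from 371, 382 and 372 CPM to 322, 323 and 311 CPM, with a log2 change of -0.24 (SE 0.045, edgeR adjusted p = 0.00585). In TNBC it rose from 156, 148 and 162 CPM to 194, 183 and 220 CPM, with a log2 change of 0.36 (SE 0.063, edgeR adjusted p = 0.00312). In both cell lines the groups did not overlap. PAAD (-0.09, 95% interval -0.20 to 0.02) and PRAD (-0.10, 95% interval -0.20 to -0.0004) had small negative differences that missed the threshold (edgeR adjusted p = 0.314 and 0.239). With trends of gene length and GC content removed they were -0.18 and -0.17 and passed it (adjusted p = 0.0085 and 0.040). Over all alternatives the adjusted p was 0.00018 to 0.557 in PAAD and 0.0078 to 0.498 in PRAD. The response of CCND1 differed among the 4 cell lines (edgeR adjusted p = 4.82e-06), and between TNBC and COAD at the same dilution by 0.58 (SE 0.073, 95% interval 0.43 to 0.73, edgeR adjusted p = 2.83e-06). The COAD call was lost without control replicate 2 or Ocoxin replicate 2 (adjusted p = 0.0629 and 0.0600). The TNBC value stayed at 0.37 with an adjusted p of 0.0544 when trends with gene length and GC content were removed, the highest adjusted p of its alternatives, of which the lowest was 1.62e-14.

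CCND3 fell in TNBC, the cell line in which CCND1 rose. Controls were at 76.6, 83.6 and 80.3 CPM and Ocoxin libraries at 73.6, 71.3 and 69.7 CPM, without overlap, for a log2 change of -0.16 (SE 0.048, edgeR adjusted p = 0.0281). This call was lost without any of 5 libraries, all but control replicate 1 (adjusted p 0.0530 to 0.108). PRAD had a difference of -0.13 (SE 0.062, edgeR adjusted p = 0.286), COAD of 0.07 and PAAD of 0.06. The TNBC response of CCND3 minus that of COAD was -0.25 (95% interval -0.42 to -0.07, edgeR adjusted p = 0.0798). It passed the threshold with DESeq2 (adjusted p = 0.030), and the adjusted p was 0.0166 to 0.232 over the alternatives.

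No E cyclin passed the edgeR test in any cell line, but the side of the threshold on which CCNE2 lay in PRAD and TNBC depended on the processing. In PRAD its controls were at 39.7, 39.1 and 41.6 CPM and its Ocoxin libraries at 32.9, 33.3 and 32.8 CPM, well apart, with a log2 difference of -0.28 (SE 0.061, edgeR adjusted p = 0.0539). The adjusted p was 0.0494 with DESeq2 size factors, 0.0353 with no filter on low counts, 0.0227 with length trends removed and 0.0154 with length and GC trends removed, and 0.00177 to 0.190 over all alternatives. In TNBC CCNE2 was at 57.8, 58.5 and 60.1 CPM in controls and 52.0, 55.7 and 53.0 CPM with Ocoxin (-0.13, SE 0.048, edgeR adjusted p = 0.0671). With length and GC trends removed the adjusted p was 0.0313, and it was 0.00574 to 0.255 over all alternatives of CCNE2 in TNBC. In COAD and PAAD its groups overlapped. CCNE1 had differences of 0.0031 in TNBC (95% interval -0.19 to 0.19), -0.05 in PRAD, 0.09 in PAAD and 0.07 in COAD, and its largest upper bound was 0.27 in COAD.

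Of the 10 members, 2 differed in response in the fit of all 24 libraries, CCND1 and CDKN2B, against 10.9% of all genes, although CDKN2A and CDKN2B had no count in PAAD and thus no response there. In the fit of COAD, PRAD and TNBC alone the same 2 of 10 differed, against 9.4% of all genes. Between TNBC and COAD 1 of 10 differed, CCND1, against 6.78% of all genes, and 4 had an unadjusted p under 0.05. The share of all genes with such an unadjusted p was not computed for this response test.

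The partners of these genes were read from 4 lists. The counts in each list stand beside the share of all genes that passed the same edgeR threshold. That share was largest for TNBC, at 21%, followed by PAAD with 8.33%, PRAD with 2.98% and COAD with 2.55%. Whether a list exceeded the share of its cell line was not tested. Among 12 G1 kinases and partners, CDKN1A, which encodes the inhibitor p21, a target of p53, was altered in 3 of the 4 cell lines. It rose in COAD from 6.87, 6.54 and 6.65 CPM to 9.37, 10.7 and 8.95 CPM (log2 change 0.53, SE 0.115, edgeR adjusted p = 0.0137) and in PAAD by 0.28 (SE 0.065, edgeR adjusted p = 0.0146). In TNBC it fell from 49.5, 49.0 and 45.8 CPM to 22.8, 20.4 and 21.3 CPM (-1.16, SE 0.061). CDK6, the kinase partner of D cyclins, rose in PRAD from 3.16, 1.70 and 1.64 CPM to 7.05, 6.87 and 5.86 CPM (1.60, SE 0.251, edgeR adjusted p = 0.0257), on 15 to 29 counts in controls, and in TNBC by 0.16. CDC25A, the phosphatase that activates CDK2, fell in PRAD (-0.35). The other kinase-list genes lower in TNBC were MNAT1, a subunit of the CDK-activating kinase (-0.29), and the kinase chaperone CDC37 (-0.14). In all, 1 of 12 tested was higher in COAD and in PAAD, 1 higher and 1 lower of 11 in PRAD, and 1 higher and 3 lower of 11 in TNBC.

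Of 18 genes of RB, E2F and the DREAM complex, which represses cell cycle genes in resting cells, 3 fell in COAD. They were the repressor E2Fs E2F7 (-0.32) and E2F8 (-0.28) and the pocket protein RBL1 (-0.31). In PAAD 3 rose, E2F7 (0.47), the DREAM subunit LIN54 (0.27) and the activator E2F1 (0.26). PRAD had 1 decrease, E2F2 (-0.47). TNBC had 3 increases, in E2F8 (0.26), LIN54 (0.18) and E2F2 (0.15), and 1 decrease, in MYBL2 (-0.23). The median log2 difference of the RB, E2F and DREAM list was 0.12 in PAAD, 0.03 in TNBC, -0.10 in COAD and -0.15 in PRAD. The median over all genes tested lay between -0.0053 and 0.0088 in the 4 cell lines, but at -0.063 in PRAD with length trends removed. List medians were not recomputed with those trends removed, and a shift of the list was not tested.

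Among 10 genes of ubiquitin-dependent turnover, SKP2, which directs p27 to degradation, fell in COAD (-0.22), its partner SKP1 fell in PAAD (-0.23), and in TNBC the ligase subunit RBX1 fell (-0.40) and the deubiquitinase USP28 rose (0.18). No gene of this list was altered in PRAD with edgeR, where 1 of 10 had an unadjusted p under 0.05, against 20.8% of all genes. The 8 transcription factors that act on these promoters had 3 increases in PAAD, in MXD1 (0.61), FOXO1 (0.35) and MYC (0.32), and 2 in TNBC, in MYC (0.29) and FOXO1 (0.20). None was altered in COAD or PRAD with edgeR. In each of these 2 of 8 had an unadjusted p under 0.05, against 16% of all genes in COAD and 20.8% in PRAD. List medians in PAAD, COAD, TNBC and PRAD were -0.026, -0.041, -0.0029 and -0.035 for turnover. In the same order they were 0.18, 0.045, 0.14 and -0.00012 for the transcription factors, -0.00045, -0.029, -0.068 and -0.08 for the kinases, and 0.02, 0.04, -0.13 and -0.10 for the members tested themselves.

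**Figure D4:**
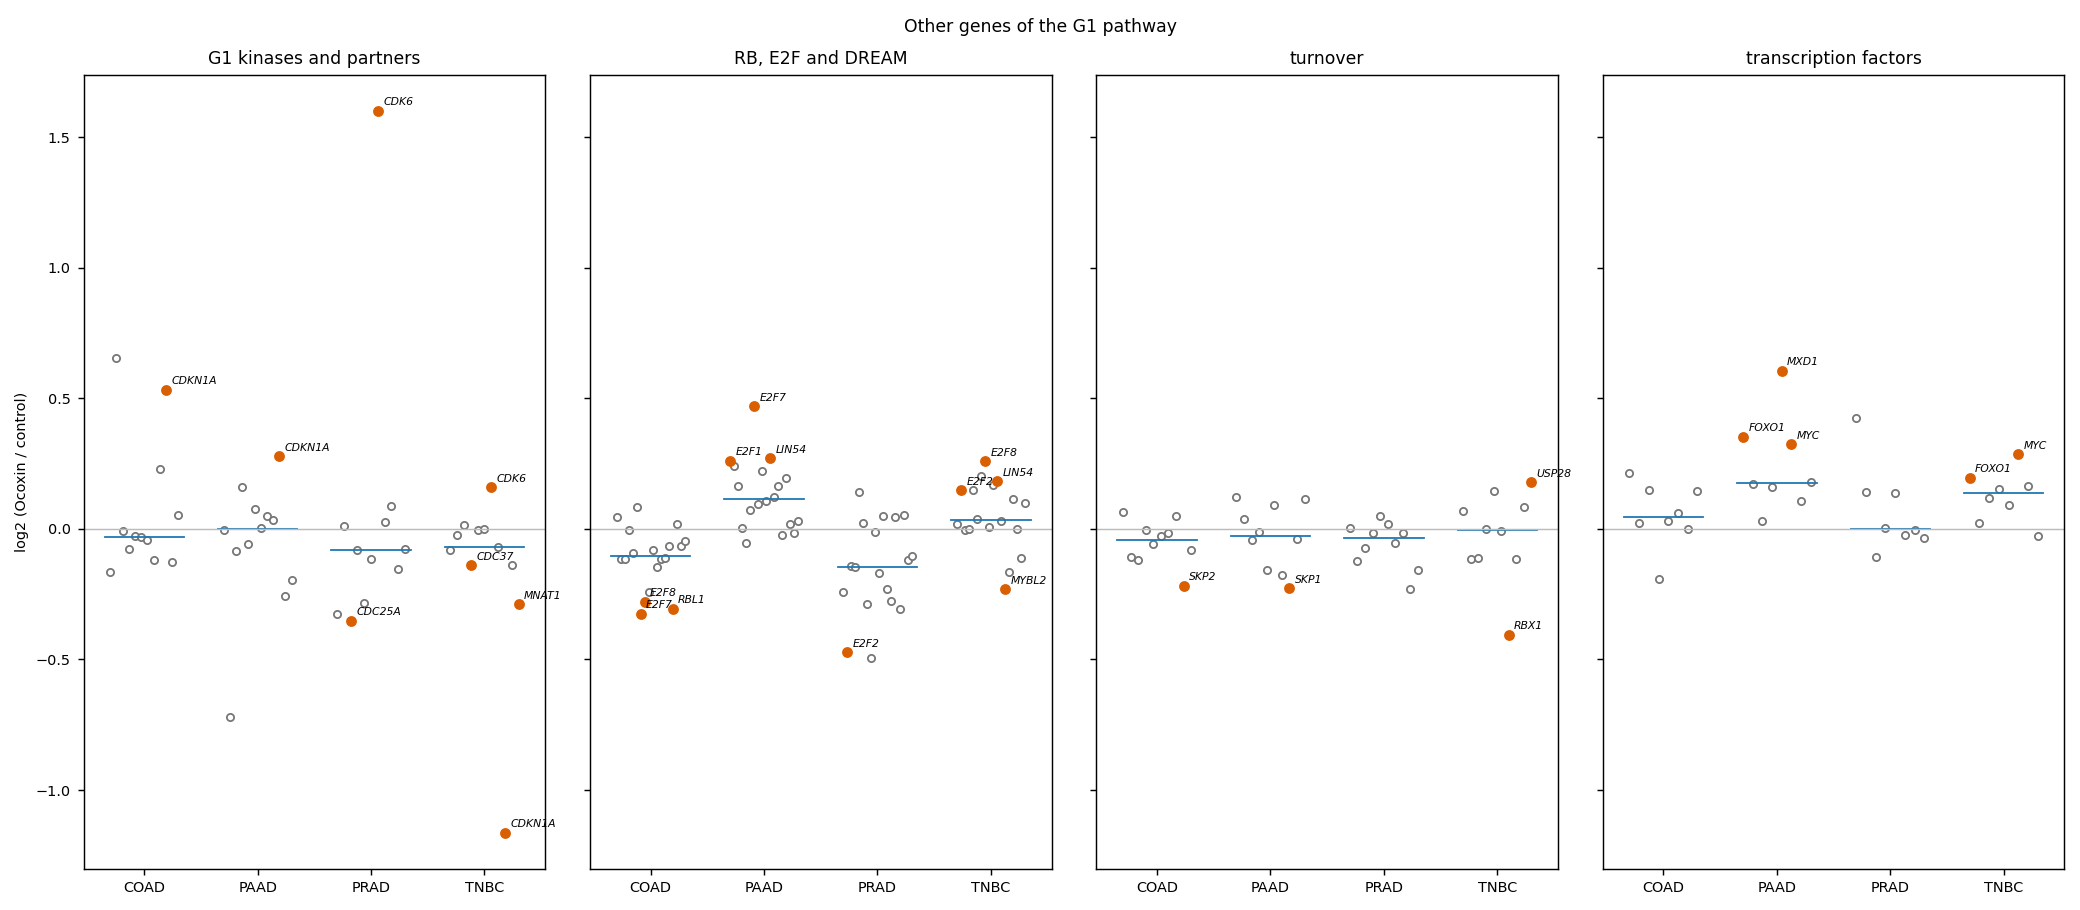
Log2 ratio of Ocoxin to control (y axis) of every tested gene of the 4 lists by cell line (x axis), with filled, named points for genes at an adjusted p under 0.05 and a blue line at each list's median. CDK6 in PRAD (1.60) and CDKN1A in TNBC (-1.16) stand farthest from 0.

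Across the 24 libraries, each set against its cell line's control mean, the genes most like a member were sought among 13168 genes. HIP1 (Pearson r = 0.92) and INO80 (0.88) were most like CCND1. MTCH1 (0.89) was most like CCND3, and UBE2T (0.79) and RRM2 (0.78), which serve DNA repair and nucleotide synthesis, were most like CCNE2. LITAF (0.84) was most like CDKN2C, ZDHHC3 (0.85) most like CDKN2D, PRMT6 (0.85) most like CDKN1B and TMEM145 (0.74) most like CCNE1. Libraries of a group share their cell line and treatment, and the values are a description.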

How the data were processed

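RNA of 4 cell lines was measured in 24 libraries, 3 control and 3 Ocoxin libraries per cell line. The labels attach a dilution to control libraries as well, so the letter for control or Ocoxin in the titles set the group. The authors used fastp for trimming, STAR for alignment to hg38 and picard for duplicate removal, and obtained gene counts from primary alignments, without strand, with featureCounts 2.0.3. The deposited values are raw counts of 58051 genes in a table for PRAD, made without the paired-end option, and a table for the other cell lines, made with it. A multi-mapping read therefore counts once, at its primary place.

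Counts were analysed in R 4.3.3. Each cell line was fitted alone in edgeR 4.0.16 (filterByExpr, TMM scaling, robust quasi-likelihood F-test, two-sided). P-values were adjusted by Benjamini-Hochberg across every tested gene, with a threshold of 0.05. Untreated cells were compared in 1 fit of 9 control libraries, and responses in 1 fit of 24 libraries. SEs were taken from the log2 change and the F statistic, and intervals are 95%. A permutation test of 3 against 3 libraries cannot go below 0.1 and was not used. Alternatives were DESeq2 1.42.0, its size factors within edgeR, other filters, a joint fit, a replicate block, removal of length trends, halved counts of paired libraries, a threshold of 0.01 and each library left out. Removal of length and GC trends, alone and with the block, and a fit without PAAD were added after the data were seen. The scripts were tested on simulated data.

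The 10 members, the lists and the motifs were chosen with earlier results of these data known. All members are named, and from each list up to 3 altered genes with the largest change per cell line. Promoter windows came from a RefSeq table.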

Additional observations from a re-analysis of the deposited data

Results flagged for a closer look

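The response to Ocoxin differed between cell lines for 2 members by the test of the interaction. CCND1 differed among the 4 cell lines (edgeR adjusted p = 4.82e-06), with log2 differences of 0.36 in TNBC, -0.24 in COAD, -0.10 in PRAD and -0.09 in PAAD. It differed between TNBC and COAD, which received the same dilution, with an edgeR adjusted p of 2.83e-06. CDKN2B differed in the fit of all 24 libraries (edgeR adjusted p = 0.00483), in which PAAD, with no count, carries no response, and in a fit of COAD, PRAD and TNBC alone (0.00369). Its log2 differences were -0.26 in TNBC, 1.34 in PRAD and 0.31 in COAD. The PRAD value missed the threshold in the main edgeR fit, and the COAD call was lost in 4 of 6 fits with a library left out. Between TNBC and COAD the difference in the response of CDKN2B was -0.58 and missed the threshold (edgeR adjusted p = 0.0557). Cell line and dilution cannot be told apart in PAAD and PRAD.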

How the results depend on the processing

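Of the log2 fold changes of members, 296 of 341 values kept their direction and side of the threshold under alternatives other than a left-out library, and 173 of 210 with a library left out. Of untreated differences 102 of 104 did, and of response differences 149 of 170. At a threshold of 0.01 the altered members numbered 1 in COAD, 0 in PAAD and 3 in TNBC, since fewer genes pass. The shares of all genes at 0.01 were not computed. In a fit of all 24 libraries the altered members numbered 0 in PAAD and 1 in each of COAD, PRAD and TNBC. CCND1 was the gene kept in COAD and TNBC, and CDKN2B was the gene in PRAD. The shares of all genes in that fit were 6.91% in PAAD, 1.17% in COAD, 4.05% in PRAD and 11.1% in TNBC. In PRAD DESeq2 gave 1 (CDKN2B), with 1.86% of all genes altered. Its size factors and no filter on low counts gave 1 (CCNE2), with 2.89% and 3.28% of all genes. Removal of length trends gave 2 in PRAD and of length and GC trends 3. Altered genes in all went from 508 (2.98%) to 1573 (9.21%) and 2469 (14.5%). Removal of length and GC trends gave 2 in PAAD, where altered genes went from 1440 (8.33%) to 2456 (14.2%). With a library left out, counts were 3 to 5 in TNBC, 0 to 2 in COAD and 0 to 1 in PAAD and PRAD. The shares of all genes were then 12.9% to 21.8% in TNBC and 0.669% to 4.33% in COAD. They were 3.64% to 9.77% in PAAD and 0.0173% to 2.28% in PRAD. Members whose response differed between TNBC and COAD numbered 2 with DESeq2, CCND1 and CCND3. They also numbered 2 with DESeq2 size factors, length and GC trends removed, without PRAD or without PAAD, there CCND1 and CDKN2B. No filter gave 3, CCND1, CDKN2A and CDKN2B, and a library left out 1 to 2. The shares of all genes under these settings were not computed for this response test. The causes were not tested.

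Signs reversed for uncalled members. With length trends removed, the log2 difference became -0.040 for CDKN2C in COAD, -0.047 for CDKN1B in COAD and -0.045 for CDKN1B in PRAD. With length and GC trends removed it became -0.034, -0.025 and -0.026 for the same genes and -0.023 for CCND3 in PAAD. With the replicate block added to that it was -0.032, -0.024, -0.025 and -0.025. With no filter CDKN1B in COAD was at -0.00052 and CCNE1 in TNBC at -0.00094, and the latter was at -0.0078 in the fit of all libraries. With a library left out, ranges were -0.036 to 0.069 for CDKN2C, -0.14 to 0.095 for CDKN2D, -0.030 to 0.039 for CDKN1B and -0.15 to 0.018 for CCNE2 in COAD. They were -0.010 to 0.10 for CCND3 and -0.033 to 0.11 for CCNE2 in PAAD, -0.042 to 0.19 for CDKN2A and -0.031 to 0.062 for CDKN1B in PRAD, and -0.15 to 0.090 for CDKN2C and -0.080 to 0.089 for CCNE1 in TNBC. For TNBC minus COAD responses they were -0.17 to 0.067 for CDKN2C and -0.16 to 0.0098 for CCNE2, and for untreated PAAD minus COAD -0.19 to 0.055 for CDKN2D and -0.11 to 0.00053 for CCNE2.

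Groups share replicate numbers, but nothing states what a number marks. Over all genes tested, deviations of same-numbered libraries correlated at -0.0051 to 0.19 in COAD, 0.024 to 0.12 in PAAD, 0.091 to 0.41 in PRAD and 0.062 to 0.22 in TNBC, so that no cell line had every pair over 0.1 and no pairing was assumed. That answer depends on the filter. Minimum mean levels of 1, 10 and 30 CPM were also tried, after the blocked calls had been seen. Every pair was over 0.1 in PAAD and TNBC at 1, in PRAD as well at 10, and in COAD as well at 30. With the 10 CPM minimum, replicates 1, 2 and 3 of TNBC gave r = 0.29, 0.32 and 0.63. Those of PAAD gave 0.41, 0.31 and 0.62, those of PRAD 0.30, 0.18 and 0.605, and those of COAD 0.40, 0.081 and 0.50. A pairing is therefore not excluded, and members not altered in the main fits are so without one. With the replicate block, altered genes numbered 1925, 3998, 1451 and 5878 in COAD, PAAD, PRAD and TNBC, against 451, 1440, 508 and 3644 without it. As shares of all genes these were 10.9%, 23.1%, 8.5% and 33.9%, against 2.55%, 8.33%, 2.98% and 21%. Altered members numbered 2 in PAAD with the block (CDKN1B, adjusted p = 0.0344, was added), 3 in PRAD (CDKN2B, CDKN2C and CCNE2) and 6 in TNBC (CCNE2, adjusted p = 0.0156, was added). Responses differing among cell lines numbered 5 with the block, and between TNBC and COAD 4. The shares of all genes with a differing response were not computed with the block. With the block and length and GC trends removed, altered members numbered 2 in PAAD and 6 in PRAD, with 3415 (19.8%) and 5488 (32.1%) altered genes in all. Differing responses then numbered 6 among cell lines and 4 between TNBC and COAD, again without a share of all genes.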
